A study of Mus musculus with 10 samples.

Results

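S1pr1, Cd69, Klf2, Cxcr4, Cxcr5 and Ccr7 encode receptors, and 1 regulator of them, that decide whether a lymphocyte stays in a tissue, leaves it or enters another. The 6 genes were taken from a list by symbol, and each was measured by the probe set of highest mean among those annotated with that symbol alone. All 6 were among the 19938 symbols with such a probe set and among the 14953 genes left after dim rows were removed. RNA came from B220+ cells sorted out of pre-B colonies (CFU-PreB, colonies grown from single B cell precursors) after 7 days in M3630 methylcellulose medium. The colonies were grown from the bone marrow of 5 Hspa9+/+ mice, which the labels call wild type littermates, and 5 Hspa9+/- mice, which lack 1 working copy of Hspa9 and are called heterozygous here. Hspa9 encodes mortalin, a chaperone of the mitochondrial matrix. Each mouse was cultured separately and hybridised to 1 array, and the labels used here give no age, sex or allele design. Values are RMA expression on the log2 scale, and every difference is heterozygous minus wild type, so a difference of -1 is a halving.

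As background, S1PR1 is the G protein-coupled receptor through which lymphocytes follow sphingosine 1-phosphate (S1P) out of bone marrow and lymphoid organs into blood. CD69 binds S1PR1 and takes it off the cell surface, which holds activated cells in place, and KLF2 is a zinc finger transcription factor that activates S1pr1 in T cells and is induced by the pre-B cell receptor in B cell precursors. CXCR4 keeps B cell precursors in the marrow beside stromal cells that make CXCL12, whereas CXCR5 and CCR7 guide mature B cells to follicles and to T cell zones.

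Of the members, 5 had lower means in heterozygous cells and Cxcr5 had a higher one. No member passed adjustment over all genes: limma called 0 of the 14953 genes (0% called), and the smallest adjusted p of any gene was 0.0795. At a limma p under 0.05 before adjustment, 5 of 6 members were lower, against 635 genes or 4.25% of all genes tested that were lower at that level, while 1015 genes or 6.79% were higher. For 3 of the 6 members the highest heterozygous array was below the lowest wild type array, as for 0.809% of all genes tested. For 0 of the 6 members were the genotypes apart in the other direction, as for 1.47% of all genes tested. The median difference of the 6 members was -0.59 and that of all genes tested was 0.058. The genes were listed with earlier results of these arrays known, so these counts describe the members and are no independent test of them.

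**Figure D1:**
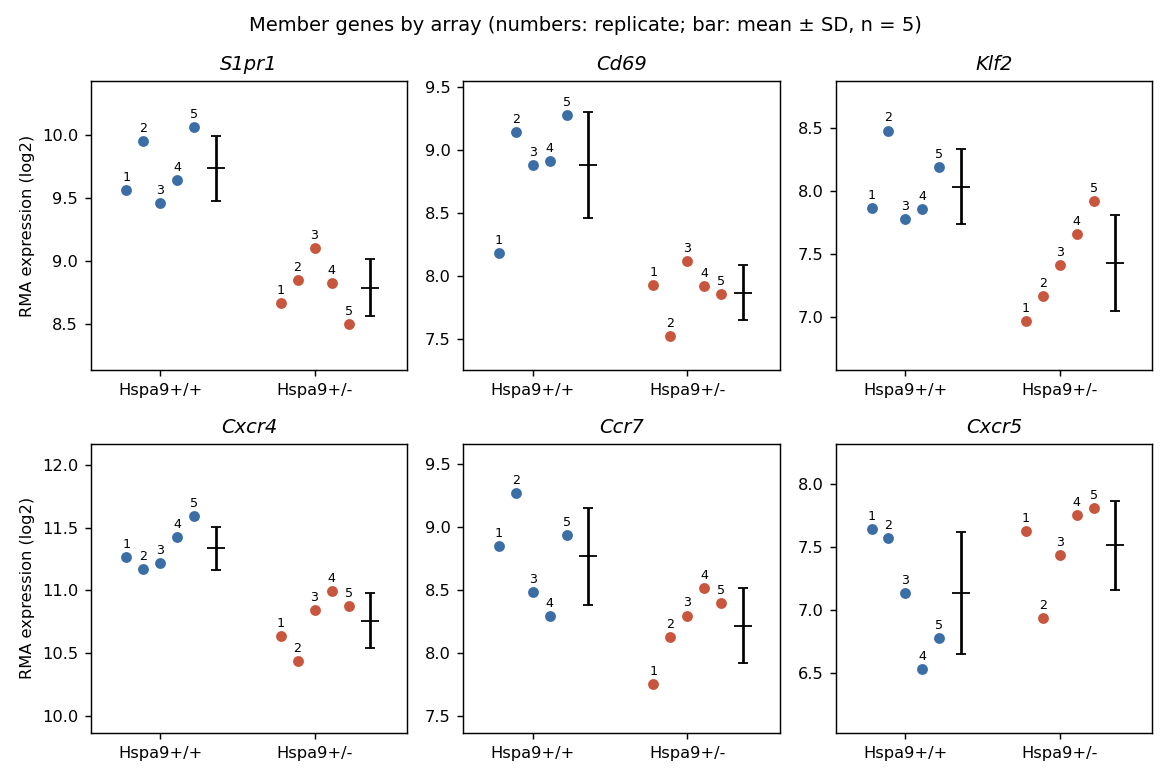
RMA expression on the log2 scale (y axis, spanning the same 2.3 log2 units in each panel) of the 6 members in the wild type (Hspa9+/+) and heterozygous (Hspa9+/-) arrays. Each point is 1 mouse, numbered by replicate, and the bars are means ± SD (n = 5). The genotypes were apart for S1pr1, Cd69 and Cxcr4, overlapped for Klf2 and Ccr7, and had the opposite order of means for Cxcr5.

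Upstream sequence was at hand for only 2 of the 6 members, the regulator Klf2 and the retention receptor Cxcr4, and is shown for both. The RefSeq promoter table (GRCm38.p6) gave the 250 bases before each annotated start, which are chr8:72318812-72319061 on the plus strand for Klf2 and chr1:128592300-128592549 on the minus strand for Cxcr4. Capitals mark matches, on either strand, to CACCC (the core bound by KLF proteins) and to TGTTTAC (bound by forkhead factors such as FOXO1). They also mark CTA and TAG with any 4 bases between them. This is a loose form of the core bound by MEF2 factors, which has A or T at those 4 bases.
Klf2: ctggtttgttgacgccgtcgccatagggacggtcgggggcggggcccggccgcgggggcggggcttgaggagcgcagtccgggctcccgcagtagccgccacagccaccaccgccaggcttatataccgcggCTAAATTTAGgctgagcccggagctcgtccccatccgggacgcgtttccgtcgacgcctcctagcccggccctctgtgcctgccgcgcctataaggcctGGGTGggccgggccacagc
Cxcr4: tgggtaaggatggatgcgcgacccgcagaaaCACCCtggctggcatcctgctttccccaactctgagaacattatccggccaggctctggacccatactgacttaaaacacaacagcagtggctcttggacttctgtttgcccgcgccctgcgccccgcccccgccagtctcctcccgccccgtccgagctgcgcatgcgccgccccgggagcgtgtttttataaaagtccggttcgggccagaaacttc
The Klf2 window held a match to the loose MEF2 form, CTAAATTTAG, from 118 to 109 bases before the start. Its 4 middle bases are all A or T, as in the MEF2 core. Any match to the loose form was held by 3.2% of the 32851 windows in the table. The share with A or T at those 4 bases was not counted. Both windows held the KLF core, in Klf2 on the other strand from 19 to 15 bases before the start and in Cxcr4 from 219 to 215 bases before it, as did 52.0% of all windows. Neither window held the forkhead letters, which 3.17% of all windows held. None of these matches overlapped another.

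S1pr1, the egress receptor, had the smallest p of the members and lies on mouse chromosome 3 from 115710433 to 115715055 (GRCm38.p6, gene bounds from RefSeq, as for the members below). Its values were 9.56, 9.96, 9.47, 9.64 and 10.07 in wild type replicates 1 to 5, and 8.67, 8.85, 9.10, 8.83 and 8.50 in heterozygous replicates 1 to 5. The highest heterozygous array, replicate 3, stayed 0.36 log2 units below the lowest wild type array, also replicate 3. Wild type arrays averaged 9.74 ± 0.260 and heterozygous arrays 8.79 ± 0.226 (SD, n = 5), a difference of -0.95 (SE 0.149). On a linear scale heterozygous cells held 51.8% as much of the transcript as wild type cells, with a 95% interval from 41.2 to 65.0%. The limma adjusted p over all genes was 0.111, and the two-sided exact permutation test of this single value gave p = 0.0079, the smallest that 252 splits of 10 arrays allow. Only 5 lower genes had a smaller p, and 0.207% of all genes tested had a difference as low. With array weights, which gave wild type 1 and heterozygous 2 the least influence, S1pr1 was at -0.85 and passed (limma adjusted p = 0.0311). In that setting 137 genes passed. It was the only 1 of 21 alternatives in which S1pr1 passed, and the largest limma adjusted p among them was 0.555. In these bulk samples, fewer cells that carry a transcript and less of it per cell cannot be told apart.

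Cd69, the C-type lectin that removes S1PR1 from the surface (chromosome 6, 129267324 to 129275375), had the largest difference of the members. Its wild type values were 8.19, 9.15, 8.88, 8.92 and 9.28, and its heterozygous values were 7.93, 7.52, 8.12, 7.92 and 7.86. Wild type 1 was far below the other wild type arrays and only 0.0663 log2 units above heterozygous 3, but the genotypes did not overlap. Wild type arrays averaged 8.88 ± 0.423 and heterozygous arrays 7.87 ± 0.218 (difference -1.01, SE 0.195, limma adjusted p = 0.220, exact permutation p = 0.0079). The transcript was at 49.5% of its wild type amount (95% interval 36.8 to 66.6%). Over all genes it passed adjustment when wild type 1 was left out (-1.19, limma adjusted p = 0.0224), with array weights (-1.01, adjusted p = 0.0253) and without wild type 1 and heterozygous 2 together (-1.10, adjusted p = 0.0262). In these settings 22, 137 and 26 genes passed. Wild type 1 was the lowest wild type array, so leaving it out widens the Cd69 difference. These were 3 of 21 alternatives, and the largest limma adjusted p among the 21 was 0.555. S1pr1 and Cd69, the receptor and its antagonist, were both lower, by amounts that differed by 0.065 (SE 0.181, exact permutation p = 0.683, adjusted p = 0.788 over the 15 pairs of members).

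Klf2 (chromosome 8, 72319062 to 72321654) measured 7.86, 8.48, 7.78, 7.86 and 8.19 in wild type and 6.97, 7.16, 7.41, 7.66 and 7.92 in heterozygous arrays. The lowest 4 heterozygous arrays lay below all wild type arrays, and heterozygous 5 lay above wild type 1, 3 and 4. Wild type arrays averaged 8.03 ± 0.296 and heterozygous arrays 7.42 ± 0.381, a difference of -0.61 (SE 0.197), which is 65.6% of the wild type amount (95% interval 48.6 to 88.5%). It missed the threshold over all genes (limma adjusted p = 0.349), and the exact permutation p was 0.0317. Without heterozygous 5 the difference was -0.73 and the genotypes no longer overlapped, and without heterozygous 1 it was -0.49.

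Cxcr4, the receptor for CXCL12 that retains precursors in the marrow (chromosome 1, 128588199 to 128592299), had the narrowest spread within the wild type arrays. Its values were 11.27, 11.17, 11.22, 11.42 and 11.59 in wild type and 10.64, 10.44, 10.85, 11.00 and 10.88 in heterozygous arrays. Heterozygous 4, the highest of its group, was 0.177 log2 units below wild type 2. Wild type arrays averaged 11.33 ± 0.172 and heterozygous arrays 10.76 ± 0.220. The difference of -0.57 (SE 0.128) corresponds to 67.2% of the wild type amount (95% interval 55.3 to 81.7%). Its limma adjusted p was 0.297 over all genes and its exact permutation p was 0.0079. Array weights left it at -0.58, where it passed (limma adjusted p = 0.0405) along with 137 genes in all. It passed in only 1 of 21 alternatives, among which the largest limma adjusted p was 0.655. The egress receptor S1pr1 and the retention receptor Cxcr4, which act in opposite directions on marrow residence, were both lower, and their differences did not differ past the threshold (-0.38, SE 0.176, exact permutation p = 0.0714, adjusted p = 0.153 over 15 pairs).

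Ccr7, the receptor for CCL19 and CCL21 (chromosome 11, 99144199 to 99155077), overlapped between genotypes. Wild type arrays measured 8.85, 9.27, 8.48, 8.30 and 8.94, and heterozygous arrays 7.76, 8.12, 8.30, 8.51 and 8.40. Heterozygous 1 and 2 were below every wild type array, and wild type 4 was below heterozygous 3, 4 and 5. Wild type arrays averaged 8.77 ± 0.386 and heterozygous arrays 8.22 ± 0.296, a difference of -0.55 (SE 0.198, limma adjusted p = 0.384) or 68.3% of the wild type amount (95% interval 50.5 to 92.4%). The exact permutation p of this value was 0.0556, so it missed 0.05 there as well, and the difference was -0.42 without wild type 2.

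Cxcr5, the receptor for CXCL13 on B cells (chromosome 9, 44511787 to 44526444), was the member with a higher mean in heterozygous cells. Its values were 7.65, 7.57, 7.13, 6.53 and 6.78 in wild type and 7.63, 6.94, 7.43, 7.75 and 7.81 in heterozygous arrays. Wild type 4 and 5 lay below all heterozygous arrays, and wild type 1 and 2 lay among the higher heterozygous ones. Wild type arrays averaged 7.13 ± 0.487 and heterozygous arrays 7.51 ± 0.353, a difference of 0.38 (SE 0.240, limma adjusted p = 0.539, exact permutation p = 0.198). The 95% interval, -0.15 to 0.91, includes 0. The difference was 0.23 without wild type 4 and 0.65 without wild type 1 and heterozygous 2.

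**Figure D2:**
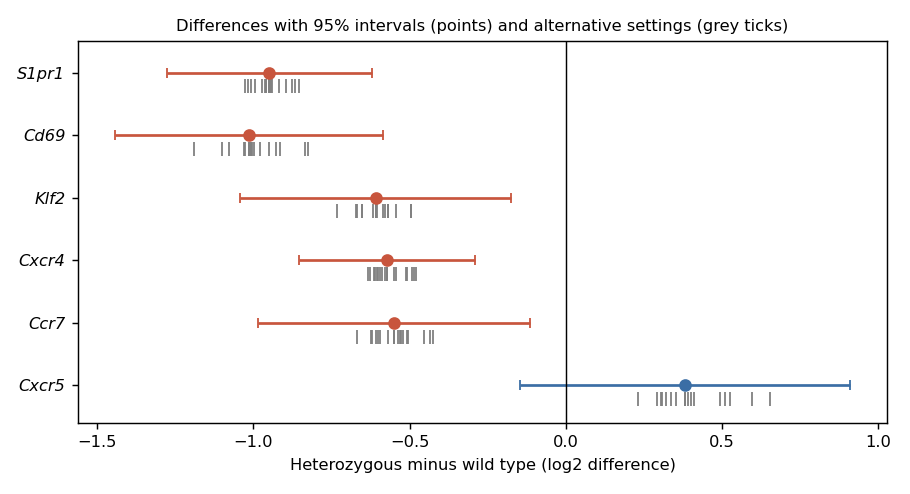
Heterozygous minus wild type difference (x axis, log2) of each member, with limma's 95% interval, and the same difference under the 21 alternative settings as grey ticks. The intervals of S1pr1, Cd69, Klf2, Cxcr4 and Ccr7 lie below 0 and that of Cxcr5 spans 0 (-0.15 to 0.91). No tick changes side of 0.

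The members were also compared with each other directly. They were listed with earlier results of these arrays known, so these comparisons describe the members and are no independent test of them. For each of the 15 pairs of members the log2 difference within an array was compared between genotypes by an exact permutation test, with adjustment over the 15 pairs, and 3 pairs passed, all with Cxcr5. These were S1pr1 against Cxcr5 (difference of differences -1.33, SE 0.342), Cxcr4 against Cxcr5 (-0.95, SE 0.296) and Ccr7 against Cxcr5 (0.93 for Cxcr5 minus Ccr7, SE 0.242), each with an exact permutation p of 0.0079 and an adjusted p of 0.0397. In these 3 pairs the genotypes did not overlap. This restates their p, the smallest that 252 splits allow, which is reached only without overlap. The share among other pairs of genes was not computed. Klf2 against Cxcr5 (-0.99, adjusted p = 0.0595) and Cd69 against Cxcr5 (-1.40, adjusted p = 0.0714) missed the threshold. The 10 pairs without Cxcr5 did not pass either. Among them the widest gap was Cd69 against Ccr7 at -0.46 (SE 0.276, adjusted p = 0.202) and the narrowest was Cxcr4 against Ccr7 at -0.023 (SE 0.223, adjusted p = 0.929).

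Within a genotype the members did not all vary together. After each gene's genotype means were subtracted, Klf2 and Ccr7 followed each other most closely over the 10 arrays (r = 0.841), and for both genes wild type 2 was the highest or next to highest array and heterozygous 1 the lowest or next to lowest. S1pr1 and Cd69 had r = 0.554. Klf2 and S1pr1, which KLF2 activates in T cells, had r = 0.252. Wild type 2 and 5 were high in both, but heterozygous 5 was the highest heterozygous array for Klf2, at 7.92, and the lowest for S1pr1, at 8.50. Cxcr5 had r = 0.520 with Ccr7, 0.397 with Klf2, 0.008 with Cxcr4, -0.183 with Cd69 and -0.249 with S1pr1. These values share arrays, normalization and RNA extracts. They are given as descriptions and were not tested.

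**Figure D3:**
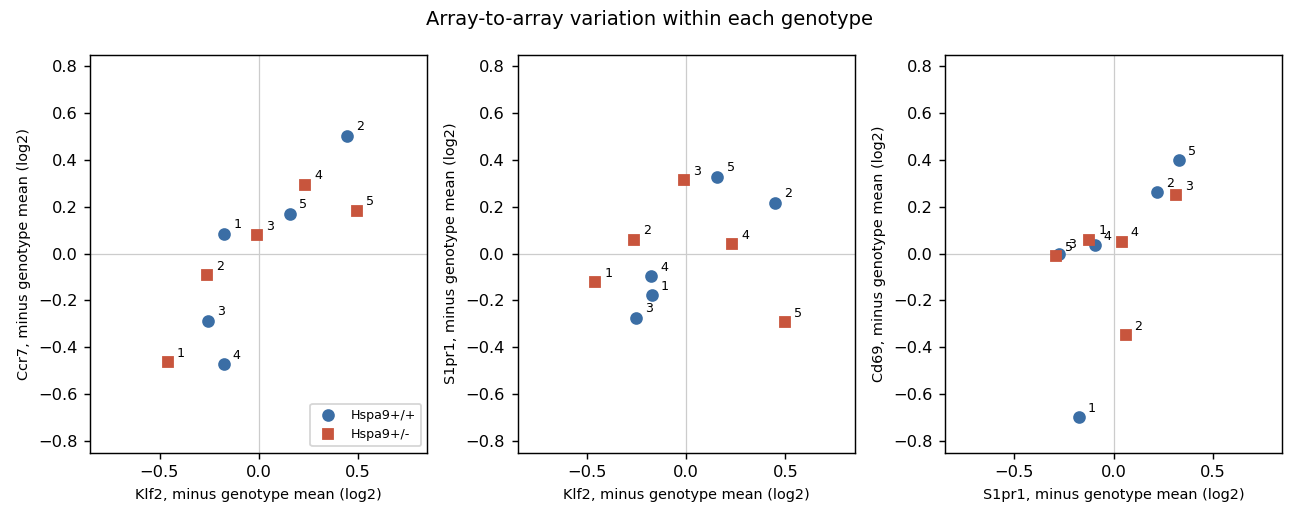
Deviation of each array from its genotype's mean, in log2 units on both axes, for Klf2 and Ccr7, Klf2 and S1pr1, and S1pr1 and Cd69. Circles are wild type and squares heterozygous arrays, numbered by replicate. Klf2 and Ccr7 lie along a rising line (r = 0.841), whereas heterozygous 5 is high in Klf2 and low in S1pr1.

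The genes whose pattern over the 10 arrays was most like that of a member were searched among 13757 genes tested, and the 2 of highest Pearson r were named for each. For S1pr1 they were Lmo4, a LIM domain cofactor (r = 0.971, Spearman rho 0.964), and Fcrla, a B cell protein related to Fc receptors (r = 0.969, rho 0.952). For Cd69 they were Cd22, an inhibitory receptor of B cells (r = 0.978), and Tmem255a (r = 0.956). For Cxcr4 they were the actin-binding Cnn3 (r = 0.950) and the centromere factor Mis18a (r = 0.943). In these 3 members the genotypes are apart, so part of each r is the genotype difference itself: with genotype means removed, r was 0.818 for both genes of S1pr1, 0.945 and 0.828 for those of Cd69 and 0.823 and 0.870 for those of Cxcr4. Klf2 was followed most closely by Ngrn (r = 0.950) and Dmac2 (r = 0.940). Ccr7 was followed by the ceramide kinase gene Cerk (r = 0.973) and by Relb, a subunit of NF-kappaB (r = 0.966), and for both r was 0.956 with genotype means removed. Cxcr5 was followed by Tsfm, a mitochondrial translation factor (r = 0.957), and by the coronin gene Coro7 (r = 0.931). Without the 2 arrays farthest from each member's median, the r of these 12 genes ran from 0.855 (Dmac2) to 0.987 (Tmem255a). The genes were picked for a high r over arrays that include these, so this is no independent check of the likeness.

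Lists of other genes of these pathways had medians between -0.12 and 0.17, and several of them moved with single arrays or with the macrophage covariate. Of S1P receptors and enzymes of S1P metabolism, 13 of 14 were tested, 0 passed in either direction and their median difference was 0.053, beside 0.058 for all genes. That median was 0.18 without wild type 1, 0.0019 without wild type 3, -0.029 without wild type 4, -0.032 with macrophage markers as covariate and -0.025 with other-cell markers as covariate, so it has no settled direction. S1pr2, S1pr3, S1pr4 and S1pr5, the other S1P receptors, were at 0.38 (SE 0.239), 0.053 (SE 0.152), -0.041 (SE 0.199) and -0.081 (SE 0.121). The smallest p values belonged to Plpp1, a lipid phosphatase, at 0.27 (SE 0.142), and to Sphk1, a kinase that makes S1P, at 0.21 (SE 0.114), neither below 0.05 before adjustment. Of other chemoattractant receptors and ligands, 12 of 16 were tested with a median difference of 0.11, and 0 passed adjustment. At a limma p under 0.05 before adjustment 1 of these 12 was higher, against 6.79% of all genes tested, and 0 were lower. This was Ccr9, the receptor for CCL25, with a mean of 5.20 ± 1.18 in wild type and 6.93 ± 1.01 in heterozygous cells (difference 1.72, SE 0.598, limma adjusted p = 0.373). Ccr9 is also a marker of plasmacytoid dendritic cells. Cnr2, a cannabinoid receptor that holds immature B cells in the marrow, was at -0.48 (SE 0.319), Gpr183 at -0.11 (SE 0.265), and the ligand gene Cxcl12 at 0.11 (SE 0.0861).

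Homing and adhesion receptors had a median difference of 0.17 over 15 of 16 genes tested, with 0 past adjustment. At a limma p under 0.05 before it 1 of 15 was lower, near the 4.25% of all genes tested, and 0 were higher. The median was 0.070 without heterozygous 2, 0.11 without heterozygous 3 and -0.0059 with macrophage markers as covariate. The gene lower before adjustment was Pecam1, an adhesion molecule of leukocytes and endothelium, at 8.55 ± 0.242 in wild type and 8.04 ± 0.331 in heterozygous cells (difference -0.51, SE 0.172, limma adjusted p = 0.354). The integrin chain Itga4, which binds VCAM1 on stroma, was at -0.67 (SE 0.317) and Cd44, a hyaluronan receptor, at 0.0022 (SE 0.238). Signalling genes below the receptors had a median of -0.046 over 28 of 32 genes tested. None of them passed adjustment. At a limma p under 0.05 before it 3 of 28 were lower and 0 higher, against 4.25% and 6.79% of all genes tested. The 3 were Rgs2, a brake on G protein signalling, at -0.79 (SE 0.227), its relative Rgs18 at -0.90 (SE 0.393) and the small GTPase Rap1b, which activates integrins, at -0.37 (SE 0.144). The G protein subunit Gnai2, which couples these receptors, was at -0.034 (SE 0.106).

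Among transcriptional regulators, all 16 were tested, the median was -0.12 and 0 passed adjustment. At a limma p under 0.05 before adjustment 2 of 16 were lower and 1 was higher, against 4.25% and 6.79% of all genes tested. Klf3, a KLF2 relative that acts as a repressor, was lower at -0.49 (SE 0.160) and Klf7 was lower at -0.23 (SE 0.0936). Irf8, a transcription factor of B and myeloid cells, was higher at 0.40 (SE 0.175). Foxo1, an activator of Klf2 in lymphocytes, was at -0.36 (SE 0.245), and Irf4, which raises Cxcr4 in pre-B cells, was at -0.39 (SE 0.219), and neither passed. The MEF2 factor Mef2c was at -0.44 (SE 0.265), Mef2d at -0.0025 (SE 0.195), and the kinases Map2k5 and Mapk7, which act on MEF2 upstream of Klf2, at -0.072 (SE 0.0815) and 0.17 (SE 0.0982).

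**Figure D4:**
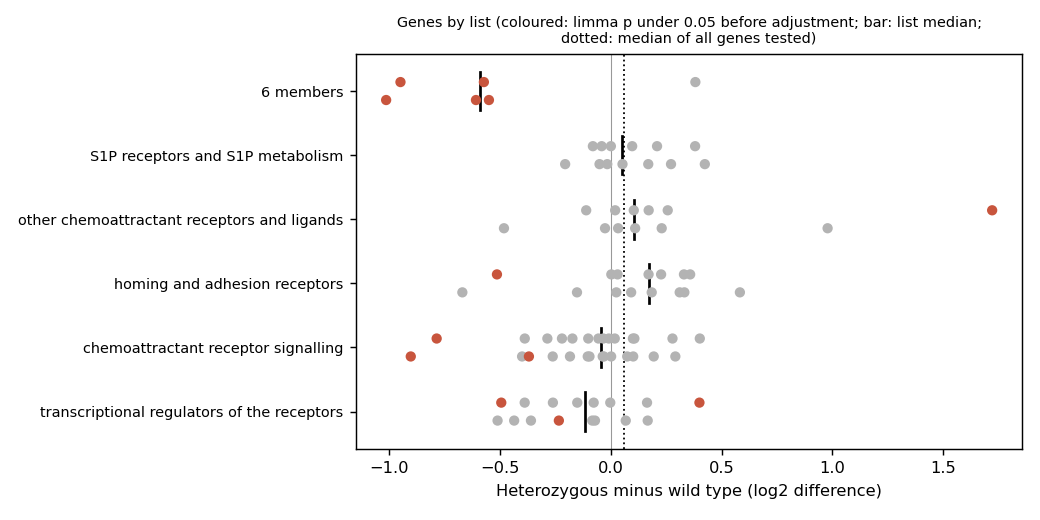
Heterozygous minus wild type difference (x axis, log2) of every tested gene of the members and of the 5 pathway lists, 1 point per gene, coloured where limma's p was under 0.05 before adjustment. Black bars are list medians and the dotted line is the median of all genes tested, 0.058. The members' median, -0.59, lies left of the medians of the pathway lists, which run from -0.12 to 0.17. Immature and mature B cell markers, not drawn, had a median of -0.90.

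The sorted cells carried B cell precursor genes, and genes of other cells differed between arrays. List means below are over the markers with a probe set, and the genes counted are those tested. The 12 B lineage precursor markers tested had a list mean of 10.49 to 10.63 in wild type and 10.01 to 10.52 in heterozygous arrays. Of these, 9 had a difference below 0 and 3 above it, and 0 passed adjustment. At a limma p under 0.05 before adjustment 3 were lower, against 4.25% of all genes: Rag1 (-0.79), Rag2 (-0.59) and Cd24a (-0.19). Igll1 (0.28) was higher at that level, against 6.79% of all genes, and Vpreb1 was at 0.16. The gene of the sort marker, Ptprc, was at -0.68 (SE 0.345, limma adjusted p = 0.490). Immature and mature B cell markers were lower alongside the members. Of 8 such genes tested, 8 had a difference below 0, 7 were lower at a limma p under 0.05 before adjustment (4.25% of all genes), 5 had genotypes that did not overlap (0.809% of all genes) and 0 passed adjustment. Their median difference was -0.90, beside -0.59 for the 6 members, with a list mean of 7.88 to 8.72 in wild type and 7.02 to 7.54 in heterozygous arrays. All marker lists were chosen with earlier results of these arrays known, so their counts are no independent test. The 12 monocyte and macrophage markers, whose differences were above 0 in 12 of 12, had a list mean of 5.57 to 9.17 in wild type and 7.03 to 9.76 in heterozygous arrays, and were highest in wild type 1 and heterozygous 2, which were also the arrays of lowest Cd69 in their groups. Neutrophil markers were above 0 in 12 of 12 genes, and ranged from 5.01 to 6.75 and from 5.58 to 7.52. Plasmacytoid dendritic cell markers, above 0 in 4 of 6, ranged from 7.10 to 7.99 and from 7.61 to 8.83. T and NK cell markers, above 0 in 4 of 4, ranged from 4.48 to 4.84 and from 4.90 to 5.20. Of 9 such markers 8 had a probe set, and only 4 were bright enough to be tested. Their list means lie near the filter value of 4.52. The filter used the mean over all 10 arrays, so a dim gene that is high in 1 genotype passed it more easily. At a limma p under 0.05 before adjustment, 4 of 6 plasmacytoid dendritic cell and 4 of 4 T and NK cell markers were higher. The share over all genes was 6.79%. The macrophage and neutrophil lists each had 0 of 12 at that level. For 3 of 4 T and NK cell markers every heterozygous array was above every wild type array, as for 1.47% of all genes. None of these markers passed adjustment. Megakaryocyte markers ranged from 4.93 to 7.54 and from 5.25 to 7.79, erythroid markers from 5.70 to 6.15 and from 5.98 to 6.16, and stroma and endothelium markers from 4.65 to 4.95 and from 4.80 to 5.08. Fitted with the mean of the macrophage markers as covariate, the member differences were -0.95 for S1pr1, -0.83 for Cd69, -0.57 for Klf2, -0.48 for Cxcr4, -0.61 for Ccr7 and 0.30 for Cxcr5. Without wild type 1 and heterozygous 2 together they were -1.01, -1.10, -0.59, -0.51, -0.51 and 0.65 in the same order. There 4 members instead of 5 were lower before adjustment, Ccr7 being lost, against 6.09% of all genes. With the mean of the neutrophil, monocyte and macrophage, erythroid and megakaryocyte lists as covariate the member differences were -0.94, -0.82, -0.57, -0.49, -0.60 and 0.34. Neither covariate holds the plasmacytoid dendritic cell, T and NK cell, or immature and mature B cell lists, whose part in the member differences was not tested. Hspa9 itself, 9.92 in wild type and 9.18 in heterozygous cells on average, was at -0.73 (SE 0.185). Its genotypes overlapped, the limma adjusted p over all genes was 0.345, and the exact permutation p of the single value was 0.0159. The labels used here do not say where the allele is altered, so its probe set may measure another stretch of the transcript and is a limited check of the genotypes.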

How the data were processed

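The authors deposited gene-level RMA values on the log2 scale, made with Affymetrix Expression Console from Mouse Gene 1.0 ST arrays per the labels; its versions, build and annotation are not given in the sources used here. The RMA method subtracts background, brings arrays to a shared distribution and summarises probes, so a shift of most genes would be largely removed. The table holds 35556 probe sets on 10 arrays, with array medians from 5.38 to 5.49. The number of arrays limits the precision. The p-values set a difference against the variation between arrays, in which mouse, culture, sort and hybridisation cannot be separated.

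Probe sets with 1 symbol in the platform annotation (21789) were kept, 1 per symbol by highest mean over all arrays, and the dimmest rows, up to the 25th percentile of row means (4.52), were left out. The genotype fit used limma 3.58.1 (lmFit and eBayes, R 4.3.3; Benjamini-Hochberg over 14953 genes, threshold 0.05), which was tested on simulated data. Single values and the 15 pairs were compared by two-sided exact permutation over 252 splits. The members, pathway lists and markers were chosen with earlier results of these data known. Named genes were the members, Hspa9, Ptprc, per list up to 4 genes of smallest p under 0.05 before adjustment or else the 2 of smallest p, and per member the 2 genes of highest r; predicted genes, olfactory and vomeronasal receptors, receptor segments and small RNA genes were not searched. Other genes named were chosen by role after their values were seen. Alternatives were other filters, normalizations and variance models, weights on arrays, a block for the replicate number, marker covariates and arrays left out. Promoter sequence and gene bounds are from RefSeq.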

Additional observations from a re-analysis of the deposited data

How the results depend on the processing

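The 6 member differences and that of Hspa9 kept their direction in all 21 alternatives. S1pr1 ran from -1.03 to -0.85, Cd69 from -1.19 to -0.82, Klf2 from -0.73 to -0.49, Cxcr4 from -0.63 to -0.48, Ccr7 from -0.67 to -0.42 and Cxcr5 from 0.23 to 0.65. Without 1 array S1pr1 ran from -1.03 to -0.87, Cd69 from -1.19 to -0.91, Klf2 from -0.73 to -0.49, Cxcr4 from -0.63 to -0.49, Ccr7 from -0.67 to -0.42, Cxcr5 from 0.23 to 0.53 and Hspa9 from -0.84 to -0.62. The count of genes past the limma threshold, 0 over all arrays, was 137 with array weights, 26 without wild type 1 and heterozygous 2, and from 0 to 22 without 1 array: 22 without wild type 1 and 3 without heterozygous 2. With array weights S1pr1 (-0.85), Cd69 (-1.01), Cxcr4 (-0.58) and Hspa9 (-0.79) passed adjustment. Cd69 also passed without wild type 1 (-1.19) and without wild type 1 and heterozygous 2 (-1.10). None of these 4 genes passed in any other alternative. The count of members lower before adjustment was 5, or 4 without wild type 1 and heterozygous 2. The share of all genes lower at that level was 4.25% over all arrays and 6.09% without those 2. The count of members whose genotypes did not overlap was 3, or 4 without heterozygous 5, which adds Klf2. Heterozygous 5 was the only array by which Klf2 overlapped. Leaving out an array eases separation for any gene, and the share of all genes was not computed there. Both counts of members were recomputed by choice after seeing the data. The medians of the 5 pathway lists moved by less than the spread of the list median between arrays of a genotype (SD 0.075 to 0.288), but not all kept their sign. S1P genes ran from -0.032 (macrophage covariate) to 0.18 (without wild type 1) and homing and adhesion receptors from -0.0059 (macrophage covariate) to 0.21 (without heterozygous 4). Other chemoattractant receptors ran from 0.026 to 0.15, signalling genes from -0.13 to -0.028 and regulators from -0.17 to -0.082, with no change of sign. With the replicate number as a block the count of genes past the threshold was 0 and S1pr1 was at -0.95 with an adjusted p of 0.555. Whether equal replicate numbers mark paired mice is not known. Same-numbered arrays had correlations of their deviations from -0.528 to 0.534, and 3 of 5 such pairs were over 0.1. Of the wild type arrays, 0 of 5 correlated best with their own number. The highest value between the genotypes was 0.743, for wild type 1 and heterozygous 2, whose numbers differ. Deviations thus follow more than the number, so these correlations cannot decide whether the numbers pair the mice. The smallest exact permutation p is 0.0079, so that test cannot rank S1pr1, Cd69 and Cxcr4. RMA values carry no detection call here, and levels of different probe sets were not compared.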
